A study of Mus musculus with 6 samples.

Results

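The receptors for haematopoietic growth factors were examined in mouse bone marrow through 9 genes: Csf1r, Csf2ra, Csf2rb, Csf2rb2, Csf3r, Il3ra, Epor, Kit and Flt3. A gene was read from every probe set (a group of short array probes scored together) that the platform annotation gives exactly 1 symbol, when that symbol was one of these. This gave 14 probe sets of 45037 and 9 genes of 18193, with 1 to 3 probe sets a gene. The marrow came from adult female F1 mice: 3 samples of (AKR/J x FVB/NJ)F1, called AKR F1 here, and 3 of (DBA/2J x FVB/NJ)F1, called DBA F1. The labels name no treatment beyond Avertin anaesthesia before collection and give no exact age. All animals share the FVB/NJ parent strain, so each group carries 1 FVB/NJ genome copy beside that of an AKR/J or a DBA/2J parent. The study asked which transcripts differ at baseline between these genotypes. Nothing in the labels used here ties an array to a separate animal, so the p-values cover no more than the spread among these 6 samples, and that spread may be technical.

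Growth factor receptors set how many blood cells of each kind the marrow makes. One class, the cytokine receptors without kinase activity of their own, works through JAK kinases and STAT factors. It holds Epor for erythropoietin, Csf3r for G-CSF, the alpha chains Csf2ra for GM-CSF and Il3ra for IL-3, and the beta chains Csf2rb and Csf2rb2. Csf2rb is the signalling chain shared by the receptors for GM-CSF, IL-3 and IL-5, while Csf2rb2 is a mouse duplicate that serves IL-3. The other class are receptor tyrosine kinases: Kit binds stem cell factor on stem cells, progenitors and mast cells, Flt3 acts in lymphoid and dendritic cell progenitors, and Csf1r is the M-CSF receptor of monocytes and macrophages.

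Epor was the only receptor past the test, and the sequence before its start is shown for that reason. It spans chr9:21963577-21963826 (GRCm38.p6, minus strand, RefSeq), the 250 bases before the annotated start, and comes from C57BL/6J, not from the strains studied. The capitals mark a match to AGATAA (here on the reverse strand, TTATCT), the core bound by GATA factors, 54 to 49 bases before the start, and a match to the GC box GGGCGG (reverse strand, CCGCCC), 26 to 21 bases before it.
Epor: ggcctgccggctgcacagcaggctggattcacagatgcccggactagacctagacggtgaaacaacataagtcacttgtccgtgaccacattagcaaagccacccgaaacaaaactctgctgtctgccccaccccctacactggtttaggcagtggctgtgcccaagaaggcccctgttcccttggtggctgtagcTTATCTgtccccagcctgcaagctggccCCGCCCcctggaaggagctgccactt
Of the 32851 promoter windows in the RefSeq table, 9.99% hold AGATAA on either strand and 32.7% hold GGGCGG. Of the 7 receptor genes with a window there, 1 (Epor) holds the first motif and 4 (Csf2ra, Il3ra, Epor and Kit) the second. A match is a description of these letters and not a binding site. Gata1, the red cell factor of the GATA family, is described below with its level.

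The deposited values are log2 expression. The medians of the 6 arrays lay between 5.14 and 5.19 and their upper quartiles between 7.34 and 7.43, and the number of arrays limits the precision. Neutrophil and red cell markers were bright in both groups, as marrow should show: the mean of 13 neutrophil genes was 12.75 to 12.86 in AKR F1 and 12.42 to 12.82 in DBA F1, and that of 9 erythroid genes was 11.09 to 11.13 in AKR F1 and 10.94 to 11.09 in DBA F1. Eif2s3y, Kdm5d and Uty, genes of the Y chromosome that female marrow lacks, read between 2.76 and 3.63 and mark the background. The groups also differed in muscle transcripts, with the mean of 14 skeletal muscle genes at 6.95, 7.84 and 6.43 in AKR F1 replicates 1 to 3 against 11.09, 8.48 and 9.31 in DBA F1, and 0 higher and 11 lower in AKR F1. They differed in array controls too. An index of 3' over 5' signal was 1.25, 2.03 and 1.80 in AKR F1 and 1.23, 1.09 and 1.03 in DBA F1, and the mean of the hybridization controls was 10.41, 10.56 and 10.61 in AKR F1 against 10.96, 11.33 and 11.04 in DBA F1. None of these 3 measures overlapped between the groups. Their part in the results below cannot be told apart from genotype and was not tested further. With any of them as a covariate no receptor passed. Of all probe sets, 5541 passed without a covariate, against 85 with the muscle mean, 112 with the index and 5 with the hybridization controls.

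Epor alone among these receptors passed. The 14 probe sets gave 1 that was higher in AKR F1 and 0 that were lower by limma's test (adjusted p under 0.05), and 13 did not reach the threshold. The share that passed was 7.14%, against 12.3% of all probe sets and 21.1% of those above the median level. By direction, 5.57% of all probe sets passed as higher in AKR F1 and 6.73% as lower. The unadjusted p was under 0.05 in 4 of the 14, against 27.3% of all probe sets. By the brightest probe set of each gene 1 of 9 receptors passed, where 15.2% of all genes did, 9.2% as higher and 6.04% as lower. Every receptor probe set lay above the median level of the arrays and 9 lay above the upper quartile, so all were above the Y-linked background. Differences are in log2 units throughout, with the DBA F1 mean taken from the AKR F1 mean.

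Small positive differences were common among the receptors, though 13 of the 14 did not pass. The difference was above 0 in 12 of 14 probe sets, against 56.6% of all, with a median of 0.21 where all probe sets had 0.03. The median size of the difference, whatever its sign, was 0.21 for the receptors and 0.15 for all probe sets. In 5 probe sets all AKR F1 arrays lay above all DBA F1 arrays and in 0 below, against 18.1% and 14.9% of all probe sets (33.0% in either direction). DBA F1 replicate 3 weighed on this: without it 9 of 14 differences were above 0 and the median was 0.14. Without DBA F1 replicate 1, the array richest in muscle transcripts, the median was 0.32 with 12 of 14 above 0.

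**Figure D1:**
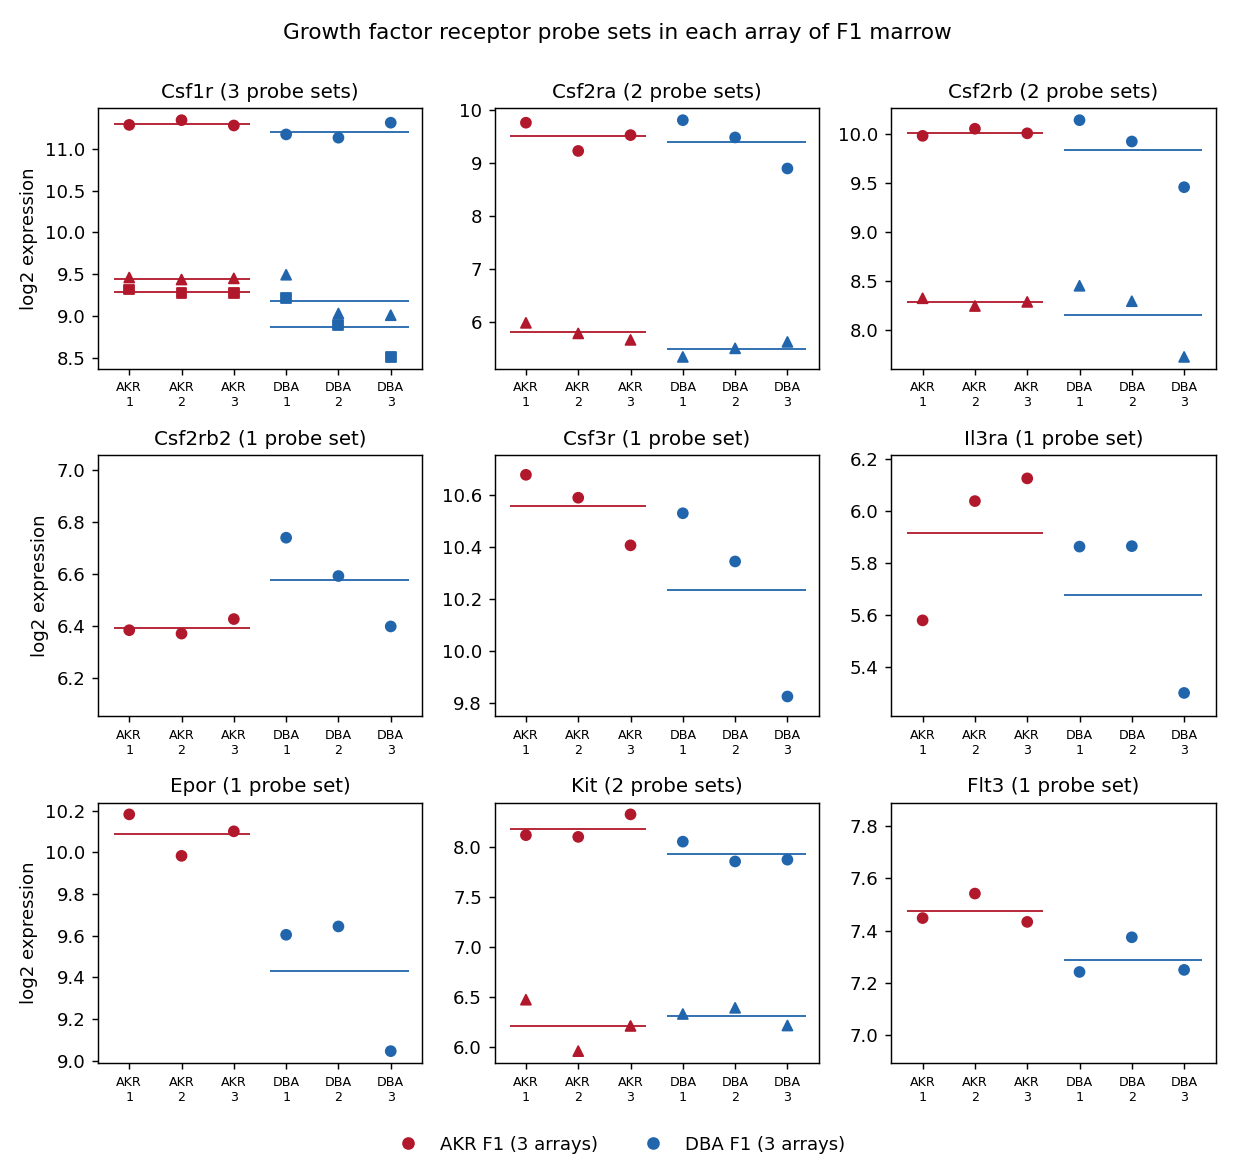
Log2 expression (vertical axes, each panel with its own range) of the 14 receptor probe sets in the 6 arrays (horizontal axes), AKR F1 in red and DBA F1 in blue, with group means as lines and marker shapes for different probe sets of a gene. Epor shows the widest clear space between the groups, 0.34 on the log2 scale, and DBA F1 replicate 3 is the lowest array in 8 of the 14.

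Epor, the erythropoietin receptor of red cell precursors, was 1.58-fold higher in AKR F1 (95% interval 1.22 to 2.04). Its probe set read 10.18, 9.98 and 10.10 in AKR F1 replicates 1 to 3, against 9.60, 9.64 and 9.05 in DBA F1. All AKR F1 arrays lay above all DBA F1 arrays, and the lowest DBA F1 value was that of replicate 3. The means were 10.09 ± 0.10 and 9.43 ± 0.33 (SD, n = 3 each), a difference of 0.66 (SE 0.16, adjusted p = 0.035 over all probe sets and 0.029 over genes in limma). The call was kept without each DBA F1 array in turn and lost without each AKR F1 array, with adjusted p of 0.094, 0.084 and 0.11 without replicates 1, 2 and 3. Without DBA F1 replicate 3 the difference was 0.46 (adjusted p = 0.034). With the index of 3' over 5' signal, the hybridization control mean or the muscle mean as a covariate it was 0.70, 0.88 and 0.68, with adjusted p of 0.32, 0.53 and 0.31. Epor has a single probe set here.

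Of 9 measured erythroid markers 2 passed as higher in AKR F1 (9.2% of all genes did so) and 0 as lower. The median of the 9 was 0.05. The higher were Alas2 (0.35), the first enzyme of heme synthesis in red cells, and Gata1 (0.68). Among those that did not pass, Slc4a1, Klf1, Ermap and Hba-a1 were above 0 (0.31, 0.21, 0.05 and 0.02). Rhag, Epb42 and Tfrc were below 0 (-0.24, -0.22 and -0.12). The summed signal of the 9 markers, as log2, ranged from 15.43 to 15.47 in AKR F1 and from 15.21 to 15.37 in DBA F1. The probe set of Hba-a1 lay below the lower quartile of the arrays, and the other 8 lay above it. In bulk marrow more cells of a type and more RNA per cell cannot be told apart, which holds for every gene here. Whether erythroid cell number had a part in the Epor difference was not tested.

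The M-CSF receptor Csf1r was read by 3 probe sets, and its difference ranged from 0.10 to 0.42 between them. The brightest read 11.29, 11.34 and 11.28 in AKR F1 and 11.17, 11.13 and 11.31 in DBA F1, a difference of 0.10 (95% interval -0.11 to 0.30, adjusted p = 0.54). The groups overlapped. The second read 9.46, 9.43 and 9.45 in AKR F1 against 9.49, 9.03 and 9.01 in DBA F1 (0.27, adjusted p = 0.24), with DBA F1 replicate 1 the highest of all arrays. The dimmest read 9.31, 9.28 and 9.27 in AKR F1 against 9.21, 8.89 and 8.51 in DBA F1, which did not overlap, and differed by 0.42 (95% interval 0.04 to 0.79, adjusted p = 0.14). The SD of the second was 0.012 in AKR F1 against 0.27 in DBA F1. Without DBA F1 replicate 1 both passed, at 0.43 and 0.59 (adjusted p = 0.027 and 0.028), while the brightest did not (0.08, adjusted p = 0.68). The gap between the dimmest and the brightest probe set was wider in DBA F1 by 0.32, which an exact two-sided permutation test did not separate from the spread (p = 0.4, where 3 against 3 allows no less than 0.1).

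Monocyte and macrophage markers were higher in AKR F1 in 4 of 12 measured genes (9.2% of all genes were) and lower in 0, with a median of 0.12. The higher were the complement genes C1qa, C1qb and C1qc and the scavenger receptor gene Marco. Of those that did not pass, Cd68, Cd14, Irf8 and Adgre1 were above 0 (0.41, 0.18, 0.05 and 0.02). Ccr2, Cd163, Vcam1 and Cx3cr1 were below 0 (-0.50, -0.37, -0.16 and -0.0045). Their mean was 8.94 to 9.18 in AKR F1 and 8.76 to 8.90 in DBA F1. Their summed signal, as log2, was 13.27 to 13.44 in AKR F1 and 13.14 to 13.28 in DBA F1, with no member below the lower quartile. Osteoclast genes, of a lineage that also needs Csf1r, were higher in 0 and lower in 0 of 7. The part of these cells in the Csf1r values was not tested.

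The G-CSF receptor Csf3r, which drives neutrophil formation, did not pass. It read 10.68, 10.59 and 10.41 in AKR F1 against 10.53, 10.34 and 9.83 in DBA F1, a difference of 0.32 (95% interval -0.08 to 0.73, adjusted p = 0.28). The groups overlapped and DBA F1 replicate 3 was the lowest array, without which the difference was 0.12. The neutrophil marker mean was also lowest in that array, at 12.42 against 12.82 and 12.71 in DBA F1 replicates 1 and 2, and the part of neutrophil number in the Csf3r values was not tested. Of 13 neutrophil markers 1 was higher in AKR F1, Elane, and 1 was lower, Cxcr2 (9.2% and 6.04% of all genes were).

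The GM-CSF receptor alpha chain, Csf2ra, had a bright and a dim probe set. The bright one read 9.75, 9.22 and 9.52 in AKR F1 and 9.80, 9.47 and 8.89 in DBA F1, a difference of 0.11 (95% interval -0.41 to 0.63, adjusted p = 0.81). Its DBA F1 arrays spread on both sides of the AKR F1 arrays, and its sign turned without DBA F1 replicate 3 (-0.14) and without AKR F1 replicate 1 (-0.02). The dim one read 5.98, 5.78 and 5.65 in AKR F1 against 5.33, 5.49 and 5.62 in DBA F1. Here the groups did not overlap, by a margin of 0.04, and the difference of 0.32 did not pass (95% interval 0.05 to 0.59, adjusted p = 0.12).

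The IL-3 receptor alpha chain, Il3ra, did not pass and lay between the median and the upper quartile of the arrays. It read 5.58, 6.04 and 6.12 in AKR F1 and 5.86, 5.86 and 5.30 in DBA F1. The groups overlapped, with AKR F1 replicate 1 below the upper DBA F1 arrays, and the difference was 0.24 (95% interval -0.20 to 0.68, adjusted p = 0.48).

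The beta chains Csf2rb and Csf2rb2 are neighbours on chromosome 15 and close copies, so probes may read both. The brighter probe set of Csf2rb read 9.99, 10.06 and 10.01 in AKR F1 and 10.15, 9.93 and 9.46 in DBA F1, a difference of 0.17 (adjusted p = 0.55). The dimmer one read 8.32, 8.25 and 8.29 in AKR F1 and 8.45, 8.29 and 7.72 in DBA F1 (0.13, adjusted p = 0.69). The SDs of this pair were 0.037 and 0.040 in AKR F1 against 0.35 and 0.38 in DBA F1. Without DBA F1 replicate 3 both differences turned, to -0.02 and -0.09.

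Csf2rb2 was the receptor gene whose brightest probe set differed in the other direction. It read 6.38, 6.37 and 6.43 in AKR F1 and 6.74, 6.59 and 6.40 in DBA F1, a difference of -0.18 (95% interval -0.43 to 0.06, adjusted p = 0.31). The groups overlapped through DBA F1 replicate 3. A further probe set, annotated to both genes and so outside the 14, differed by 0.33 (adjusted p = 0.20). Within an array the gap between Csf2rb and Csf2rb2 was 3.60, 3.69 and 3.59 in AKR F1 against 3.41, 3.34 and 3.06 in DBA F1, with no overlap. With the dimmer Csf2rb probe set it was 1.94, 1.87 and 1.86 in AKR F1 against 1.71, 1.70 and 1.33 in DBA F1. Both gaps, looked at after the values were seen, gave p = 0.1 in an exact two-sided permutation test, the smallest that 3 arrays against 3 allow. Groups that do not overlap always give this value, so the test adds nothing to the lack of overlap. Both gaps use the same Csf2rb2 probe set and are not separate results.

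Kit, the stem cell factor receptor, had probe sets of opposite sign, neither of which passed. The brighter read 8.12, 8.10 and 8.32 in AKR F1 against 8.05, 7.85 and 7.87 in DBA F1, without overlap, a difference of 0.25 (95% interval 0.02 to 0.49, adjusted p = 0.16). With array weights it passed the gene test (0.31, adjusted p = 0.0465). The dimmer read 6.47, 5.96 and 6.21 in AKR F1 and 6.33, 6.39 and 6.21 in DBA F1, a difference of -0.10 (adjusted p = 0.70) that turned to 0.03 without AKR F1 replicate 2. The gap between them differed by 0.35 between the groups (exact two-sided permutation p = 0.3). Mast cell and basophil markers, of cells rich in Kit, were higher in 1 of 7 (Hdc, 0.69) and lower in 0. Of the others, which did not pass, Mcpt8, Ms4a2 and Cpa3 were below 0 (-0.40, -0.17 and -0.11). Gata2, Cma1 and Fcer1a were above 0 (0.22, 0.08 and 0.04). Stem and progenitor markers were higher in 1 of 7 (Gfi1b) and lower in 1 (Hoxa9). For comparison, 9.2% of all genes passed as higher and 6.04% as lower. The summed log2 signal of the stem and progenitor markers was 12.60 to 12.89 in AKR F1 and 12.74 to 12.78 in DBA F1.

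Flt3, the receptor of early lymphoid and dendritic progenitors, did not pass. It read 7.45, 7.54 and 7.43 in AKR F1 against 7.24, 7.37 and 7.25 in DBA F1. The groups did not overlap, and the difference of 0.19 did not pass (95% interval -0.02 to 0.39, adjusted p = 0.22). Dendritic cell markers were higher in 1 of 7, Bst2 (0.74), and lower in 0. Of the others, which did not pass, Itgax, Tcf4, Zbtb46, Batf3 and Siglech were above 0 (0.35, 0.25, 0.16, 0.15 and 0.10). Xcr1 was below 0 (-0.06) and lay below the lower quartile. The summed log2 signal of the list was 9.89 to 10.00 in AKR F1 against 9.52 to 9.68 in DBA F1, and Tcf4, the brightest, weighs most in it. B cell markers were higher in 1 of 7, Cd79a (1.32), and lower in 2, Ms4a1 (-0.99) and Ebf1 (-0.86). For comparison, 9.2% of all genes passed as higher and 6.04% as lower. The part of these cells in the Flt3 values was not tested.

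**Figure D2:**
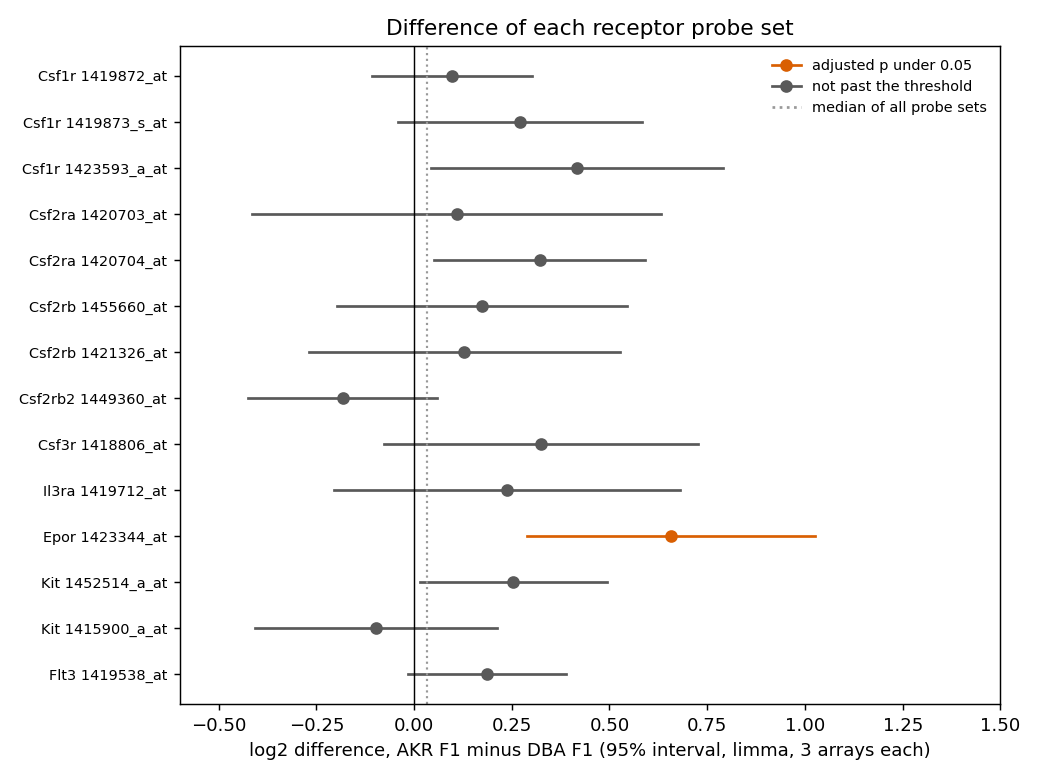
Log2 difference of each receptor probe set, AKR F1 minus DBA F1 (horizontal axis), with the 95% interval of limma's fit, and the median of all probe sets as a dotted line. Epor, in orange, passed the test at 0.66, and the intervals of the other 13 lie between -0.43 and 0.79.

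For the 13 probe sets that did not pass, the intervals bound what could have been missed. They reached down to 0.74-fold and up to 1.73-fold, AKR F1 over DBA F1, so differences of 2-fold or more lay outside all of them. A difference as large as that of Epor lay inside the intervals of Csf3r, Il3ra and the dimmest Csf1r probe set, and a p that misses the threshold does not show that the groups were alike.

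The receptors varied more between the DBA F1 arrays than between the AKR F1 arrays. The SD was larger in DBA F1 in 11 of 14 probe sets, against 59.8% of all probe sets and 62.4% of those above the median level, and the median SD of the receptors was 0.08 in AKR F1 and 0.30 in DBA F1. Over all probe sets the median SD was 0.11 in AKR F1 and 0.13 in DBA F1. DBA F1 replicate 3 was the lowest array in 8 of 14, where it was the lowest in 22.2% of all probe sets and in 29.4% of the brighter ones. The receptors' median deviation from their own means was 0.13, 0.12 and 0.07 in AKR F1 replicates 1 to 3, against 0.10, -0.03 and -0.39 in DBA F1 replicates 1 to 3. Over all probe sets this deviation was between -0.02 and 0.03 in every array. Marker means were also lowest in DBA F1 replicate 3 for neutrophils and for monocytes and macrophages (8.76, against 8.90 and 8.82 in DBA F1 replicates 1 and 2). The same held for mast cells and basophils (7.51), dendritic cells (6.161, against 6.172 in DBA F1 replicate 1) and erythroid cells (10.938, against 10.947 in DBA F1 replicate 1). It did not hold for stem and progenitor, B cell and osteoclast markers. The part of cell makeup was not tested.

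**Figure D3:**
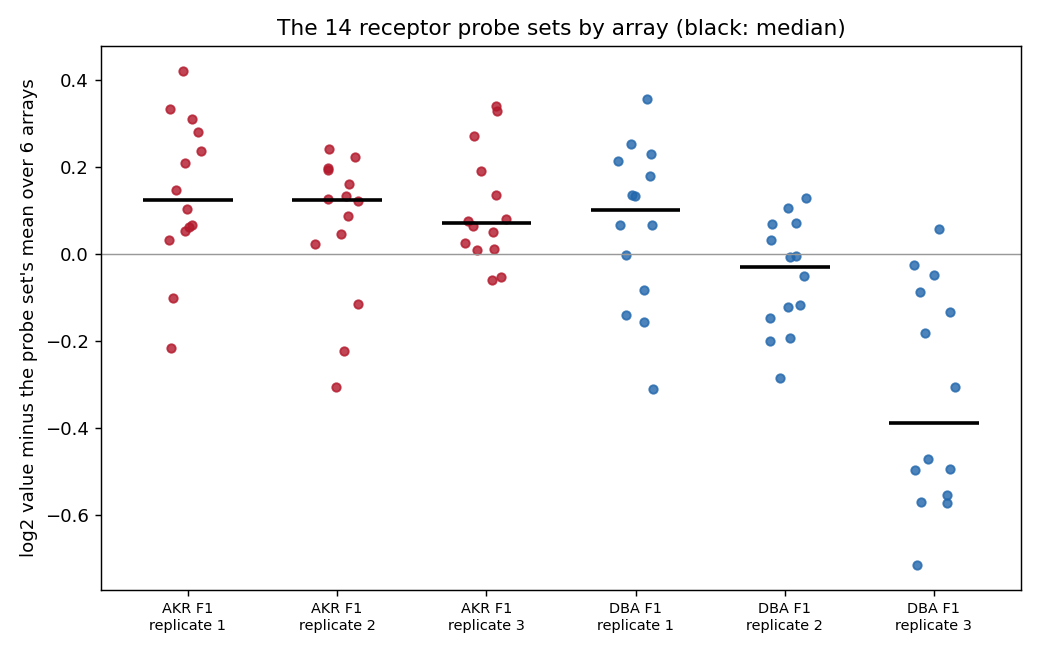
Deviation of each of the 14 receptor probe sets from its own mean over 6 arrays (vertical axis, log2) in each array (horizontal axis), with the median as a black bar. DBA F1 replicate 3 has a median of -0.39, and the other 5 arrays lie between -0.03 and 0.13.

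Genes around the receptors were covered by 8 lists of ligands, other receptors, kinases, STAT factors, adaptors, inhibitors, targets and lineage regulators. The 128 measured genes gave 21 higher and 9 lower in AKR F1, with 98 past neither side of the threshold, so that 23.4% passed, against 15.2% of all genes. The lists hold many bright genes. In the probe set test, which is not the gene test used for these lists, 21.1% of the brighter probe sets passed. The median difference was 0.12, against 0.06 for all genes. Leaving out AKR F1 replicate 1, 2 or 3 cut these 30 to 19, 11 or 11, and leaving out DBA F1 replicate 2 to 18. Leaving aside Inppl1 and Hoxa9, for which this was not computed, 10 of the 28 others that passed kept the call whichever of the 6 arrays was dropped: Lifr, Pdgfra, Pik3cg, Jak3, Stat3, Grb2, Pik3r1, Shc1, Gfi1b and Zfpm1. The remaining 18 of the 28 lost the call in at least 1 of these 6 fits but never turned sign.

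Of 7 ligand genes 1 was higher in AKR F1 (14.3%, against 15.2% of all genes in either direction), Il34, the second ligand of Csf1r, with a mean of 5.36 ± 0.01 in AKR F1 against 4.90 ± 0.10 in DBA F1 (adjusted p = 0.014), below the median level of the arrays. Dropping AKR F1 replicate 2 or 3 ended its call (adjusted p = 0.060 and 0.061). The ligand genes Csf1, Csf2, Csf3, Il3, Il5 and Kitl did not pass, with differences from -0.30 (Kitl) to 0.19 (Csf1). Of 10 other receptors 0 were higher and 3 were lower in AKR F1 (9.2% and 6.04% of all genes were). Lifr, the leukaemia inhibitory factor receptor, averaged 8.94 ± 0.10 in AKR F1 against 9.74 ± 0.17 in DBA F1 (-0.79, adjusted p = 0.0059), Pdgfra, a PDGF receptor of mesenchymal cells, differed by -0.63 (adjusted p = 0.0097), and Osmr, the oncostatin M receptor, by -0.53 (adjusted p = 0.045). Their other probe sets had the same sign and did not pass. Skeletal muscle genes were also lower in AKR F1. Lifr was highest in DBA F1 replicate 1, the array richest in muscle transcripts, while Pdgfra and Osmr were highest in DBA F1 replicate 3. A relation to muscle was not tested.

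Of 17 kinases 3 were higher and 0 lower (17.6%, against 15.2% of all genes). In the probe set test 21.1% of the brighter probe sets passed. Jak3, the kinase of receptors with the common gamma chain, was 1.89-fold, Pik3cg, a PI3-kinase subunit of white cells, 1.88-fold and Akt2 1.64-fold higher. The second probe set of Pik3cg went the other way and also passed (-0.57, adjusted p = 0.010), so its direction is unsettled although it is counted as higher here. Of 5 STAT genes 1 passed (20.0%, against 15.2% of all genes). Stat3, which acts below the G-CSF receptor, was higher, at 10.67 ± 0.03 in AKR F1 against 10.00 ± 0.10 in DBA F1 (adjusted p = 0.0050). None of its other probe sets passed (0.31, 0.06 and 0.32). Of 19 adaptors 3 were higher and 2 lower (26.3%, against 15.2% of all genes). Shc1 and Grb2, which couple these receptors to Ras, were 1.80-fold and 1.65-fold higher and Pik3r2 1.34-fold, while Pik3r1, a regulatory PI3-kinase subunit, differed by -0.73 and Sos2 by -0.54.

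Jak2, Stat5a and Stat5b, the textbook pair of steps below Epor and the beta chains, were chosen by role after their values were seen. Jak2 differed by -0.24 at its brightest probe set (adjusted p = 0.091) and by -0.78 at its other one, which passed the probe set test (adjusted p = 0.019). Stat5a differed by 0.41 (adjusted p = 0.056) and Stat5b by 0.27 (adjusted p = 0.16), and neither passed. The second probe set of Stat5a differed by 0.36 and that of Stat5b by -0.17, the opposite sign, and neither passed. Stat5a did pass with quantile normalization, without dim probe sets, with array weights and without DBA F1 replicate 1, at adjusted p from 0.032 to 0.046.

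Among 29 inhibitors 5 passed as higher and 2 as lower (24.1%, against 15.2% of all genes). Dok2 and Dok1, docking proteins that restrain signals in myeloid cells, were 1.63-fold and 1.28-fold higher, Nf1, which turns off Ras, 1.35-fold, and Spry1 1.32-fold. The other probe sets of Nf1 differed by 0.13 and -0.15 and did not pass. Socs6 and Socs4, of the suppressors of cytokine signalling, differed by -0.61 and -0.37. The fifth that was higher lay outside the 6 with the smallest p, and it is Inppl1 (1.28-fold), named after its value was seen.

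Of 18 targets 2 were higher in AKR F1 and 1 was lower (16.7%, near the 15.2% of all genes). The higher were Bcl2l1, which encodes the survival factor Bcl-xL of red cell precursors, and Ccnd3, a cyclin that acts in red cell precursors. The lower was Ccnd1. Bcl2l1 averaged 10.76 ± 0.07 in AKR F1 and 10.00 ± 0.31 in DBA F1 (1.70-fold, adjusted p = 0.014), and 2 of its other 3 probe sets passed in the same direction, by 1.23 and 0.97. Ccnd3 was 1.73-fold higher, and its other probe sets differed by 0.41, which passed, and by -0.45, which did not. Ccnd1 differed by -0.42, while another of its probe sets differed by 0.54 and did not pass (adjusted p = 0.060).

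Of 23 lineage regulators 6 were higher and 1 was lower (Hoxa9, named after its value was seen), which is 30.4%, against 15.2% of all genes. Zfpm1, the partner of Gata1 known as FOG1, was 2.02-fold higher, at 11.17 ± 0.12 in AKR F1 against 10.16 ± 0.32 in DBA F1 (adjusted p = 0.0075), and its other probe set agreed in sign and passed (1.33). Gata1 was 1.60-fold, Nfe2 1.56-fold, Gfi1b 1.55-fold and Tal1 1.37-fold higher, all factors of red cell and platelet precursors. Others that act in these precursors did not pass: Klf1 differed by 0.21, Gata2 by 0.22, Lmo2 by -0.11, Fli1 by -0.11, Myb by -0.07 and Runx1 by -0.05. Gata1 read 11.30 ± 0.06 in AKR F1 against 10.62 ± 0.23 in DBA F1 (adjusted p = 0.012), and its call ended without AKR F1 replicate 2 or 3 (adjusted p = 0.057 and 0.054). Cebpa, which drives granulocyte formation and acts on Csf3r, was 1.86-fold higher (adjusted p = 0.014) and its call ended without any 1 of the AKR F1 arrays (adjusted p = 0.051 to 0.0585). Gata1 and Klf1 are also among the erythroid markers, and Gfi1b and Hoxa9 among the stem and progenitor markers.

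**Figure D4:**
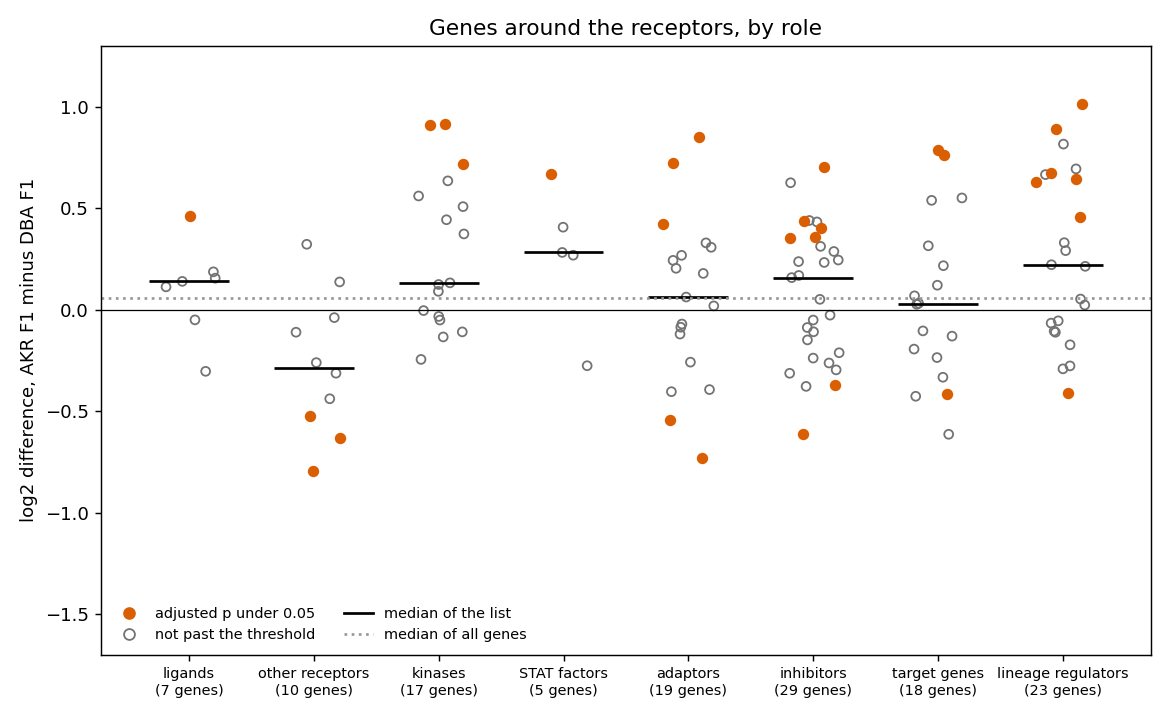
Log2 difference, AKR F1 minus DBA F1 (vertical axis), of 128 genes in 8 lists (horizontal axis), each gene by its brightest probe set, filled in orange where limma's adjusted p was under 0.05. List medians are black bars and the median of all genes is dotted; lineage regulators hold 6 higher and 1 lower, and other receptors 0 higher and 3 lower.

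The genes next to the receptors on their chromosomes were read to see whether a receptor stood alone in its region. Of 45 genes, the 3 nearest measured on either side of each receptor, 7 passed as higher and 4 as lower in AKR F1, which is 24.4%, against 15.2% of all genes. Beside Epor on chromosome 9, Rgl3 was higher by 0.46 (adjusted p = 0.0499, and past the threshold in 1 of the 6 fits without 1 array), and the other 5 did not pass. The receptor tyrosine kinase genes Pdgfra and Kdr lie on either side of Kit on chromosome 5 and differed in opposite directions, by -0.63 and 0.48 (adjusted p = 0.0097 and 0.017), where Kit itself did not pass. Pan3, next to Flt3, showed the widest difference among the 11 of the 45 that passed, 1.10 (adjusted p = 0.00185). Pvalb, near Csf2rb2 and Csf2rb, differed by more, -2.28, and did not pass (adjusted p = 0.0548). It read 12.04, 8.79 and 10.49 in DBA F1 replicates 1 to 3, highest in replicate 1, the array richest in muscle transcripts. A relation to muscle was not tested.

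Beside Csf2rb2 and Csf2rb, Ift27 and Ncf4, a subunit of the phagocyte oxidase, were higher by 0.79 and 0.57. Beside Csf3r, Lsm10 was higher by 0.44. Beside Il3ra, Psmd6 and Oxsm differed by -0.34 and -0.40, and beside Csf1r, Hmgxb3 and Slc26a2 by 0.39 and -0.40. None of the 3 measured neighbours of Csf2ra passed limma's test. Of the 11 that did, 3 (Pdgfra, Ift27 and Pan3) kept the call whichever array was dropped, and the other 8 did not.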

How the data were processed

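Trizol RNA of marrow that had been snap-frozen was labelled with biotin and hybridised to 1 Affymetrix array per sample, per the labels' protocols. The authors deposited log2 expression values of 45101 probe sets. The submitters' processing notes give RMA and MAS5, neither with a role or version. Which of them made the table is not stated there, and no further normalization was applied here in the main test. No detection calls or scan dates were used. All 64 control probe sets were left out of tests.

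Groups come from the samples' labels. Differences were tested with limma 3.58.1 in R 4.3.3 (moderated statistics), AKR F1 minus DBA F1, 4 residual degrees of freedom, two-sided, Benjamini-Hochberg adjustment over all 45037 probe sets. It was repeated on 18193 genes, each by its brightest probe set (mean over 6 arrays) with a single symbol, and pathway, marker and neighbour genes are read there. Other probe sets keep the probe set test. Symbols were updated by gene ID through RefSeq's GRCm38.p6 table, which matched 18032 genes. It served for names and gene order only. Its build and that of the array annotation were not matched, so only the promoter has coordinates.

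The members and lists were chosen with earlier results of these data known. Named are all member probe sets, up to 6 passing genes of each list by smallest p, and passing neighbours. Listed genes with no single-symbol probe set here, Epo among them, were not analysed here. The steps were tested on simulated data. Permutation tests used scipy 1.17.1. For the index of 3' over 5' signal, log2 values of 5' control probe sets were subtracted from those of their 3' partners and averaged over 6 control transcripts. The main test did not pair arrays by replicate number. Same-numbered arrays had correlations of deviations of 0.05, 0.02 and 0.08, against -0.12 to 0.05 for the other pairs. With so few arrays these values cannot decide whether the numbers pair them.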

Additional observations from a re-analysis of the deposited data

How the results depend on the processing

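The Epor call and the count of 1 receptor probe set held under array weights, median centring, quantile normalization, a robust fit with a variance trend, removal of dim probe sets and the replicate block, and in the gene test also when probe sets were averaged within genes. The count was 0 with the index of 3' over 5' signal, the hybridization control mean or the muscle mean as a covariate, at a threshold of 0.01 and with treat against a 1.2-fold change, for probe sets and genes alike. The count of 1 receptor gene became 2 with array weights, as Kit passed too. Leaving out 1 array gave 0 to 3 receptor probe sets and 0 to 1 receptor genes. The 30 pathway genes became 0 with each covariate, 10 at 0.01, 5 with treat, 49 with array weights and 11 to 42 without 1 array. All probe sets called (5541) became 112, 5 and 85 with the 3 covariates in that order, 1214 at 0.01, 901 with treat and 1683 to 5581 without 1 array. All genes called (2771) became 21, 1, 63, 526 and 237 in the same order, and 685 to 3248 without 1 array. Each covariate leaves 3 residual degrees of freedom and does not overlap between the groups. Its part cannot be told apart from genotype and was not tested.

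Signs turned only in results that had not passed, with 1 exception. With the hybridization controls the first Csf1r probe set was at -0.0096, the second at -0.14, the bright Csf2ra probe set at -0.14 and Spry1, which had passed, at -0.0051. With the index Il3ra was at -0.21 and the dimmer Kit probe set at 0.23. Without 1 array the bright Csf2ra probe set ranged from -0.14 to 0.32, the Csf2rb probe sets from -0.0185 to 0.32 and from -0.0876 to 0.28, and the dimmer Kit probe set from -0.23 to 0.0297. The cause was not tested. With the replicate block, where 5321 probe sets, 2357 genes and 32 pathway genes passed, Epor had an adjusted p of 0.033, but the labels give such arrays only a shared number. With 3 arrays a group, the intervals of receptors that did not pass reached 1.73-fold.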
